A study of Mus musculus with 16 samples.

Results

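Circulating mononuclear cells of mice that had received nitro-oleic acid on top of a heart-failure-inducing regimen were compared with those of control mice on chow. The comparison holds 11 of the 16 bulk RNA-seq libraries of the series and was formed from the library titles: 6 libraries of HFD+L-NAME+NO2-OA mice and 5 of chow mice. All mice were C57BL/6N. HFD+L-NAME+NO2-OA mice were fed a diet high in fat (HFD) together with L-NAME for 15 weeks and had NO2-OA over the last 4 of these. Their libraries are called treated below. Chow mice had regular chow and neither agent. The 2 groups therefore differ in diet, L-NAME and NO2-OA at once, and the share of each in a difference cannot be told apart in this comparison alone. The 5 libraries of HFD+L-NAME mice, which had the same regimen for 15 weeks without NO2-OA, are used beside it where they help to place a value. Doses, ages and sexes of the mice were not given in the sources used here, and the labels do not say whether separate mice gave the libraries of a group. The p-values therefore measure the spread between libraries, which may in part be technical.

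In heart failure with preserved ejection fraction (HFpEF) the heart pumps out a normal share of its filling but relaxes poorly, and metabolic disease and inflammation often accompany it. The mouse regimen joins dietary obesity with L-NAME, which blocks nitric oxide synthase and raises blood pressure. NO2-OA is an electrophilic nitro-fatty acid that binds cysteines of proteins; it is known to activate the KEAP1-NRF2 antioxidant pathway and heat shock factors, to act on PPAR gamma, and to inhibit NF-kB and STING signalling. Peripheral blood mononuclear cells (PBMCs) are the lymphocytes and monocytes of blood, here isolated over Ficoll with lysis of red cells, frozen and thawed before RNA extraction.

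Expression was given as TPM, a read number scaled by gene length and to the same total in each library. Recovered reads, the whole read numbers implied by the TPM values, averaged 12.3 ± 3.05 M in chow (M for 1000000 reads; SD, n = 5) and 13.1 ± 6.81 M in treated libraries (SD, n = 6). The libraries held marker genes of B cells, T cells, NK cells and monocytes, and also those of platelets, neutrophils and red cells. Lists of heart muscle, fat and mesothelial genes had no member above the expression filter. Protein-coding genes took only 22.1% of TPM in chow replicate 3 and 15.9% in treated replicate 2, and 39.1% to 56.4% elsewhere among the 11. Chow replicates 1 and 2 held genes of resident peritoneal macrophages. Timd4, a receptor for phosphatidylserine on these cells, stood at 3.28 and 3.79 TPM in these, called the Timd4 libraries below, and at a listed 0 in the other 9. The main differences are therefore given also without them (with HFD+L-NAME replicates 1 and 5, at 3.87 and 7.16 TPM, left out of the fit as well), which leaves 3 chow and 6 treated libraries. Numbers in the library names fell into 2 runs, with chow replicates 1 and 2 and treated replicate 2 in the upper run and the other 8 libraries in the lower.

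No gene passed the test between treated and chow libraries. Of 16365 tested genes 0% had a Benjamini-Hochberg adjusted p under 0.05 by limma on log2(TPM + 1), and the smallest adjusted p was 0.977. At an unadjusted p under 0.05 limma gave 70 higher genes (0.428%) and 388 lower genes (2.37%). With libraries scaled by median-of-ratios limma gave 311 higher and 293 lower genes at this threshold. Voom on recovered reads, a count-based fit of the same groups that also used median-of-ratios scaling, called 0 genes. It gave 461 higher and 372 lower genes at an unadjusted p under 0.05. The median difference of all tested genes was -0.20 on the log2(TPM + 1) scale, and 82.7% of genes lay below 0. This offset was -0.01 when libraries were scaled by median-of-ratios and 0.01 without the Timd4 libraries, so that values for gene groups are read against it below. HFD+L-NAME against chow and treated against HFD+L-NAME libraries each had 1 called gene (0.00611% each). These comparisons share their libraries with the present one and are no independent check of it. They were fitted only with all libraries, those that held Timd4 included, and their values below carry this limit.

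The gene groups nonetheless stood at different places. Genes of immature neutrophil granules, red cells and classical monocytes lay higher in treated libraries than in chow, and genes of T cells, CD8 T cells and NK cells, NF-kB target chemokines, immediate early factors and ribosomal proteins lay lower. In bulk RNA, fewer cells of a type and less of their RNA per cell cannot be told apart. None of the members of any list passed the test, and lists are described by their counts and medians.

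**Figure D1:**
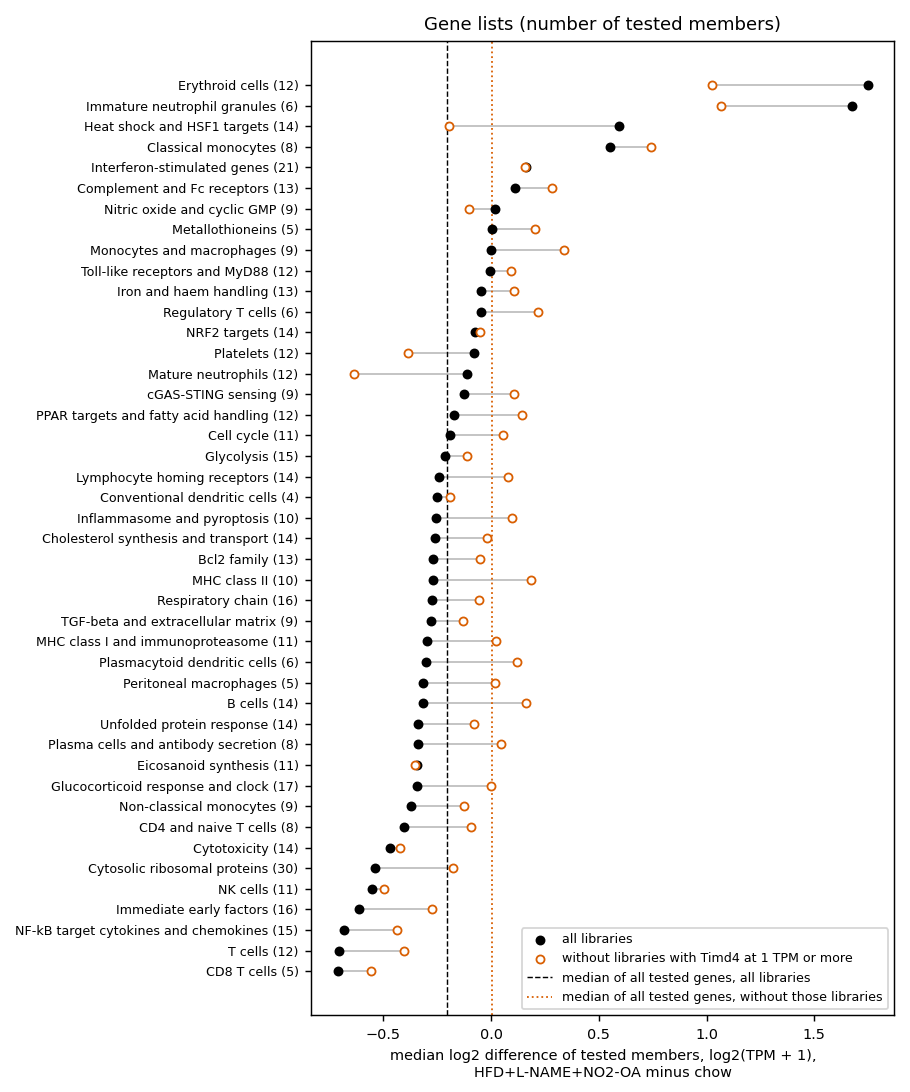
Median log2 difference (horizontal axis, log2(TPM + 1), HFD+L-NAME+NO2-OA minus chow) of the tested members of each gene list with at least 4 of them, with all libraries (filled) and without libraries holding Timd4 at 1 TPM or more (open); vertical lines mark the medians of all tested genes, -0.20 and 0.01. Erythroid and immature neutrophil granule genes lie farthest to the right in both, at 1.75 and 1.68 with all libraries, and CD8 T cell and T cell genes farthest to the left with all libraries, at -0.71 and -0.70.

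Granule genes of immature neutrophils were among the genes with the smallest unadjusted p. These proteins are made while neutrophils mature in bone marrow and are stored in their granules. Ngp (ENSMUSG00000032484), neutrophilic granule protein, stood at 2.95, 0.110, 12.0, 15.5 and 24.9 TPM in chow replicates 1 to 5, and at 5.64 (lowest), 50.8 (median) and 109 TPM (highest) in treated libraries. The groups overlapped: treated replicate 1 was the low library of its group and lay below 3 chow libraries, and replicate 5 lay below chow replicate 5. The difference was 2.27 ± 0.70 on the log2 scale (SE; limma adjusted p = 0.977; 5 of 6 libraries above the chow median). It came to 1.03 ± 0.62 without the Timd4 libraries, of which chow replicate 2 was the lowest for this gene.

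Ltf (ENSMUSG00000032496), the iron-binding lactoferrin, stood at 0.479, 0.179, 1.95, 3.68 and 5.68 TPM in chow replicates 1 to 5 and at 1.17, 13.5 and 25.2 TPM (lowest, median, highest) in treated libraries. Treated replicate 1 was the only library of its group within the chow range. On the log2 scale the difference was 1.92 ± 0.55 (SE), and 1.21 ± 0.56 without the Timd4 libraries. Camp (ENSMUSG00000038357), the antimicrobial peptide cathelicidin, differed by 1.78 ± 0.60 (1.10 ± 0.58 without the Timd4 libraries), with 0.884, 11.7 and 22.8 TPM (lowest, median, highest) against 1.04, 0 (listed), 2.69, 2.27 and 7.38 TPM in chow. All 6 tested members of this list of 11 lay above 0, 4 of them at an unadjusted p under 0.05, with a median of 1.68 against -0.20 for all tested genes. The median was 1.06 without the Timd4 libraries and 0.78 within the lower run of library numbers, against 0.01 and 0.12 for all genes. Summed over the list, chow lay between 20.2 and 115 TPM and treated libraries between 79.0 and 254 TPM, so the groups overlapped. HFD+L-NAME libraries lay between 55.6 and 310 TPM, and their list median against chow was 1.47.

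Genes of mature neutrophils stood nearer to the median of all genes. Their 12 tested members split into 6 above and 6 below 0, with a median of -0.11, which was -0.64 without the Timd4 libraries. S100a9, a chain of calprotectin and the member with the highest level, averaged 341 ± 249 TPM (SD, n = 6) against 444 ± 505 TPM (SD, n = 5), and chow replicate 4 was its highest library at 1256 TPM. Its log2 difference was 0.51 with all libraries and -0.62 without the Timd4 libraries.

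The bases upstream of the granule genes with the largest differences are shown because these genes lay higher together. The stretches are the 250 bases before the RefSeq start of each gene in the build GRCm38.p6, read on the strand of the gene: chr9:110419558-110419807 (plus strand) for Ngp, chr9:111019042-111019291 (plus strand) for Ltf and chr9:109849457-109849706 (minus strand) for Camp. Capitals mark matches on either strand to TTGCNNAA, a letter pattern bound by factors of the C/EBP family, which includes C/EBP epsilon, known for its role in secondary granule genes.
Ngp: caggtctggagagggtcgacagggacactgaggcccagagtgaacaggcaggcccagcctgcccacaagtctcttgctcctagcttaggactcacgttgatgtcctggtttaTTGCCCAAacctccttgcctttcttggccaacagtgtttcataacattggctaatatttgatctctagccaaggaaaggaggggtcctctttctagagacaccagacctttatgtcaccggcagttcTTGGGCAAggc
Ltf: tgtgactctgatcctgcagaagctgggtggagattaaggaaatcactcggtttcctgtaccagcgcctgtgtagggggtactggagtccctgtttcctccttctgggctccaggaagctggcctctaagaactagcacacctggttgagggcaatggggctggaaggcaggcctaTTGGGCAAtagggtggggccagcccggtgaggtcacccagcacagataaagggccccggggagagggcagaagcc
Camp: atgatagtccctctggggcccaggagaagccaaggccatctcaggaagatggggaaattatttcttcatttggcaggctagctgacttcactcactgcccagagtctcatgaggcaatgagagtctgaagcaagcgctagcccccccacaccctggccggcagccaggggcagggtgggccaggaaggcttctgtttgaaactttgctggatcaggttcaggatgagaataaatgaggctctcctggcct
Ngp held 2 matches, which began 138 and 11 bases upstream of its start, Ltf held 1, which began 75 bases upstream, and Camp held 0. Of 32851 mouse promoters of the same length 9.56% held at least 1 match. The matches are letters in a window and not measured binding sites, and the absence of a match in Camp says nothing of the factor.

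Genes of classical monocytes, the Ly6C-high monocytes that enter inflamed tissue, included Vcan, which had the smallest unadjusted p of the 24 genes named by that measure. Vcan (ENSMUSG00000021614), the extracellular matrix proteoglycan versican, stood at 1.30, 2.03, 0.747, 12.3 and 4.42 TPM in chow replicates 1 to 5. In treated libraries it stood at 6.43, 11.5 and 28.8 TPM (lowest, median, highest). All 6 libraries lay above the chow median, but chow replicate 4 lay within their range. The fitted log2 difference came to 1.84 ± 0.50 (SE; limma unadjusted p = 0.00117, adjusted p = 0.977), with a 95% confidence interval from 0.81 to 2.88, and was 1.47 ± 0.55 without the Timd4 libraries. HFD+L-NAME against chow differed by 0.70 for Vcan, and treated against HFD+L-NAME libraries by 1.14.

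Chil3 (ENSMUSG00000040809), the chitinase-like protein Ym1 of monocytes and neutrophils, averaged 76.9 ± 51.0 TPM (SD, n = 6) and 28.9 ± 21.3 TPM in chow (SD, n = 5), with 5 of 6 treated libraries above the chow median. Its log2 difference was 1.57 ± 0.60 (SE), and 1.56 ± 0.70 without the Timd4 libraries. Ms4a6d (ENSMUSG00000024679), a membrane protein of myeloid cells, stood at 3.13, 2.68, 1.10, 7.95 and 2.89 TPM in chow replicates 1 to 5 and at 3.97, 8.69 and 17.1 TPM (lowest, median, highest) in treated libraries. Chow replicate 4 was again the high chow library, and only this one lay within the range of the other group. The log2 difference of Ms4a6d was 1.25 ± 0.40 (SE), and 1.21 ± 0.47 without the Timd4 libraries.

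Over the 8 tested genes of the classical monocyte list 5 lay above and 3 below 0, with a median of 0.55, and with 0.74 without the Timd4 libraries. The fit that weighted libraries by their quality turned this direction, with 3 above and 5 below 0 and a median of -0.047, and in it Vcan, Chil3 and Ms4a6d differed by 0.85, 0.40 and 0.53. Ccr2, the chemokine receptor by which these monocytes leave the marrow, averaged 20.3 ± 13.0 TPM (SD, n = 6) against 12.0 ± 6.99 TPM (SD, n = 5), a log2 difference of 0.79 ± 0.49 (SE), which was -0.01 with quality weights. The sum over the list did not stand apart, with 184 to 609 TPM in treated libraries and 99.4 to 603 TPM in chow. The 9 genes of non-classical, patrolling monocytes lay below 0, with a median of -0.37, but 4 of them lay above 0 without the Timd4 libraries and 3 with median-of-ratios scaling. Among general monocyte and macrophage genes Lyz2, lysozyme, differed by 0.02, and by 0.28 without the Timd4 libraries. Ahr (ENSMUSG00000019256), the aryl hydrocarbon receptor, a ligand-activated transcription factor of many immune cells, stood at 9.16, 9.96 and 20.3 TPM (lowest, median, highest) against 4.47, 3.06, 2.63, 12.7 and 5.77 TPM in chow. Chow replicate 4 alone lay within the range of the other group, and the log2 difference was 1.02 ± 0.41 (SE), 0.80 ± 0.47 without the Timd4 libraries and 0.51 with quality weights.

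**Figure D2:**
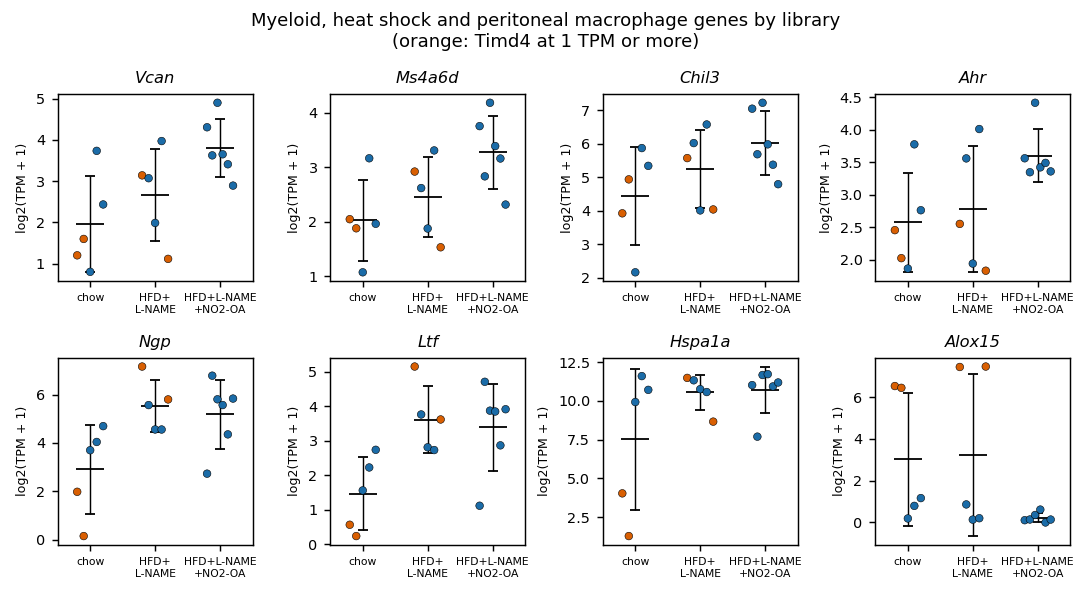
Log2(TPM + 1) of 8 genes (vertical axes) in each library of the 3 groups (points; orange for libraries with Timd4 at 1 TPM or more), with the mean and SD of each group (bars). Vcan, Ms4a6d and Ahr lie higher in HFD+L-NAME+NO2-OA with chow replicate 4 among them, Hspa1a is low in chow replicates 1 and 2 and in treated replicate 2, and Alox15 is high only in the orange libraries.

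Heat shock genes had the largest log2 differences of the named genes, and these rested on the libraries that held Timd4. Hspa1a (ENSMUSG00000091971) and Hspa1b (ENSMUSG00000090877) encode near-identical inducible HSP70 chaperones, so reads shared between them may be split or lost in counting and their separate values are uncertain. Hspa1a stood at 15.4 and 1.42 TPM in chow replicates 1 and 2, and at 975, 3118 and 1684 TPM in chow replicates 3 to 5. In treated libraries it stood at 206, 2214 and 3400 TPM (lowest, median, highest), the lowest being replicate 2. Among the libraries of this comparison the low ones were thus the 3 of the upper run of library numbers. The other chow libraries lay within the range of the treated libraries. HFD+L-NAME replicates 1 and 5 were also of the upper run and held Timd4. Hspa1a stood at 2878 TPM in replicate 1, the highest of its group, and at 405 TPM in replicate 5, the lowest. Low values therefore did not go with the upper run or with Timd4 in every library. The log2 difference of Hspa1a between treated and chow libraries was 3.20 ± 1.26 (SE) with all libraries and -0.04 ± 0.73 without those that held Timd4. For Hspa1b it was 3.26 ± 1.28 and -0.07 ± 0.74. Within the lower run alone the differences were 0.56 and 0.54. All 14 genes of the heat shock list lay above 0, with a median of 0.59, whereas 13 of the 14 lay below 0, with a median of -0.20, without the Timd4 libraries. Within the lower run, which also leaves out treated replicate 2, 10 of the 14 lay above 0. The list median there was 0.17, against 0.12 for all tested genes. Heat shock genes are induced by handling and temperature as well as by electrophiles, and the part of thawing in these values was not tested.

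The upstream stretches of this gene pair are shown because the 2 genes were high and low in the same libraries and their sequences are nearly the same. They are the 250 bases before the RefSeq starts in GRCm38.p6, chr17:34972157-34972406 for Hspa1a and chr17:34959239-34959488 for Hspa1b, both on the minus strand. Capitals mark matches on either strand to GAANNTTC, the core letters of the heat shock element to which HSF1 binds.
Hspa1a: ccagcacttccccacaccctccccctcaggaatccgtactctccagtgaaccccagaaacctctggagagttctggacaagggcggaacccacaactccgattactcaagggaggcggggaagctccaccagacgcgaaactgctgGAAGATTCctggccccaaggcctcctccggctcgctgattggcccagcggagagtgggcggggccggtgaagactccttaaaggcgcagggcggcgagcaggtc
Hspa1b: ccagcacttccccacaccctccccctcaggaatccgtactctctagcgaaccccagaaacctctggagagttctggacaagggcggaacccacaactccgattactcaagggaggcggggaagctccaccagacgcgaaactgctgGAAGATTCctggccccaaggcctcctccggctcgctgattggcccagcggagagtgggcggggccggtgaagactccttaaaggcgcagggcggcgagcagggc
Each held 1 match, which began 104 bases upstream of its start, and the stretches differed at 3 of 250 bases. Of 32851 mouse promoters of the same length 6.69% held at least 1 match.

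Red cell genes lay higher in treated libraries, with large differences between libraries in both groups. Haemoglobin genes took 0.141%, 2.51%, 0.496%, 7.67% and 5.26% of TPM in chow replicates 1 to 5. In treated libraries they took 1.10%, 7.51% and 30.7% (lowest, median, highest). The high libraries were treated replicates 1, 3 and 6, and the other 3 lay within the chow range. The group means were 11.0% ± 11.5 (SD, n = 6) and 3.22% ± 3.22 (SD, n = 5), which did not pass an exact two-sided permutation test (p = 0.173, adjusted p = 0.611 over 5 library measures; the smallest p this design allows is 0.00433).

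Slc4a1 (ENSMUSG00000006574), the band 3 anion exchanger of the red cell membrane, stood at 2.00, 36.6, 6.33, 137 and 106 TPM in chow replicates 1 to 5 and at 20.8, 167 and 377 TPM (lowest, median, highest) in treated libraries. Treated replicates 1, 3, 5 and 6 were high and replicates 2 and 4 lay within the chow range. On the log2 scale the difference was 2.11 ± 0.94 (SE), and 1.24 ± 0.92 without the Timd4 libraries. Hba-a2, an alpha globin gene, differed by 1.88 ± 0.95, and by 0.95 ± 0.97 without the Timd4 libraries. Of the 12 tested erythroid genes 11 lay above 0, 5 of them at an unadjusted p under 0.05, with a median of 1.75. The median was 1.02 without the Timd4 libraries and moved between 1.07 and 2.32 when single libraries were left out.

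Rsad2 and Ube2c were high in the same treated libraries. Rsad2, the antiviral interferon-stimulated enzyme viperin, stood at 267, 132, 183 and 301 TPM in treated replicates 1, 3, 5 and 6 and at 16.2 and 22.1 TPM in replicates 2 and 4. Chow replicates 1 to 5 stood at 2.70, 26.5, 7.77, 114 and 74.7 TPM, in the same order of libraries as for Slc4a1. Its log2 difference was 2.01 ± 0.87 (SE), and 1.18 ± 0.86 without the Timd4 libraries. Ube2c, a ubiquitin-conjugating enzyme of mitosis that red cell precursors also use, averaged 15.9 ± 13.6 TPM (SD, n = 6) against 3.87 ± 3.90 TPM (SD, n = 5), a log2 difference of 1.63 ± 0.64, and of 1.34 ± 0.71 without the Timd4 libraries. The part of red cell precursors in these values was not tested. The 21 tested interferon-stimulated genes, Rsad2 included, had a median of 0.16 against -0.20 for all tested genes, with 13 above and 8 below 0. With median-of-ratios scaling 18 lay above and 3 below 0 (median 0.32 against -0.01), and within the lower run 20 lay above and 1 below (0.41 against 0.12), whereas without the Timd4 libraries 17 lay above and 4 below (0.16 against 0.01). Oas2, a sensor of double-stranded RNA, differed by 0.65, and by 0.59 without the Timd4 libraries. The cell cycle list that holds Ube2c had a list median of -0.19 with 8 of 11 members below 0, and of 0.06 with 3 below 0 without the Timd4 libraries.

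**Figure D3:**
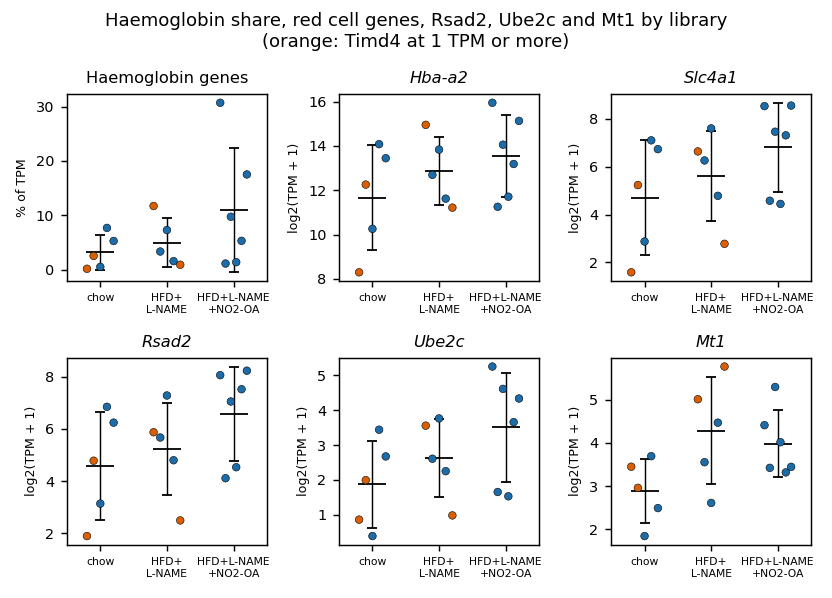
Share of TPM in haemoglobin genes (first panel, percent) and log2(TPM + 1) of Hba-a2, Slc4a1, Rsad2, Ube2c and Mt1 in each library (points; orange for libraries with Timd4 at 1 TPM or more), with group means and SD (bars). Treated replicate 1 reaches 30.7% haemoglobin, and within the treated group Slc4a1, Rsad2 and Ube2c are higher in replicates 1, 3, 5 and 6 than in replicates 2 and 4.

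T cell genes lay lower in treated libraries. Cd3g (ENSMUSG00000002033), a signalling chain of the T cell receptor complex, stood at 25.5, 29.2, 11.7, 25.3 and 9.35 TPM in chow replicates 1 to 5 and at 7.79, 9.36 and 14.6 TPM (lowest, median, highest) in treated libraries. Chow replicates 1, 2 and 4 lay above every treated library, and chow replicates 3 and 5 lay within their range. The fitted log2 difference came to -0.84 ± 0.37 (SE; limma unadjusted p = 0.0332, adjusted p = 0.977; 0 of 6 libraries above the chow median). Without the Timd4 libraries it was -0.48 ± 0.41.

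Trbc2 (ENSMUSG00000076498), a constant region of the T cell receptor beta chain, averaged 107 ± 32.0 TPM (SD, n = 6) against 213 ± 92.8 TPM (SD, n = 5), a log2 difference of -0.90 ± 0.41, and of -0.52 ± 0.46 without the Timd4 libraries. All 12 genes of the T cell list lay below 0, 3 of them at an unadjusted p under 0.05, with a median of -0.70 against -0.20 for all tested genes. The median was -0.47 with median-of-ratios scaling, -0.40 without the Timd4 libraries and -0.37 within the lower run, and all 12 genes lay below 0 in each of these. For HFD+L-NAME against chow the median was -1.01, and for treated against HFD+L-NAME libraries 0.37, comparisons that share libraries with the present one. When limma weighted libraries by their quality, 6 of the 12 T cell genes passed, all lower, in a fit that called 106 lower genes (0.648% of those tested) and 9 higher (0.055%). That fit gave its lowest weight to chow replicate 3, a library within the treated range for Cd3g and Trbc2. Chow replicates 1, 2 and 4 had high values of both genes. With chow replicate 3 left out and no weights, 0 genes were called. The cause of the calls in the weighted fit was not tested.

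List medians differed by subset, but a difference between subsets was not tested. Cd8b1 (ENSMUSG00000053044), the beta chain of the CD8 coreceptor of cytotoxic T cells, stood at 50.2, 64.1, 18.7, 54.1 and 17.9 TPM in chow replicates 1 to 5 and at 11.9, 16.5 and 32.7 TPM (lowest, median, highest) in treated libraries. Chow replicates 3 and 5 were again the low chow libraries, within the range of the other group. The log2 difference was -1.01 ± 0.42 (SE), and -0.58 ± 0.46 without the Timd4 libraries. The 5 CD8 T cell genes lay below 0 with a median of -0.71. Genes of CD4 and naive T cells had a median of -0.41, which was -0.09 without the Timd4 libraries; Lef1, a transcription factor of naive T cells, differed by -0.76 and Dapl1, a gene of naive and memory T cells, by -1.03, which came to -0.49 and -0.59 without the Timd4 libraries. Regulatory T cell genes stood near 0 with a median of -0.04, and all 6 lay above 0 without the Timd4 libraries. With quality weights all 6 lay below 0, with a median of -0.21. Foxp3, the factor that defines them, averaged 1.97 ± 0.591 TPM (SD, n = 6) and 1.94 ± 0.857 TPM (SD, n = 5).

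NK cell and cytotoxicity genes lay lower as well. Gzma (ENSMUSG00000023132), a granzyme of NK and cytotoxic T cells, stood at 30.3, 66.6, 15.4, 57.6 and 40.2 TPM in chow replicates 1 to 5 and at 6.96, 21.0 and 26.4 TPM (lowest, median, highest) in treated libraries. Of the chow libraries only replicate 3, the one with few protein-coding TPM, lay within the range of the other group. On the log2 scale the difference was -1.02 ± 0.48 (SE), and -0.85 ± 0.50 without the Timd4 libraries. Eomes (ENSMUSG00000032446), a T-box factor of NK cells and memory CD8 T cells, averaged 2.55 ± 0.855 TPM (SD, n = 6) against 4.83 ± 1.67 TPM (SD, n = 5), a log2 difference of -0.71 ± 0.31, and of -0.68 ± 0.37 without the Timd4 libraries. Klra4, an Ly49 receptor of NK cells whose family members are close copies, differed by -1.02, and by -0.84 without the Timd4 libraries. Of 11 NK cell genes 10 lay below 0, with a median of -0.55, and of 14 cytotoxicity genes 13, with a median of -0.47. These medians were -0.50 and -0.42 without the Timd4 libraries, against 0.01 for all genes. Cxcr3, the chemokine receptor of effector T cells, averaged 3.73 ± 1.32 against 6.99 ± 3.70 TPM, a log2 difference of -0.65, which was -0.34 without the Timd4 libraries.

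B cell genes did not keep their direction. All 14 lay below 0 with all libraries, with a median of -0.32, and 12 of the 14 lay above 0, with a median of 0.16, without the Timd4 libraries. Cd79a, a signalling chain beside the B cell receptor, averaged 298 ± 123 TPM (SD, n = 6) against 429 ± 235 TPM (SD, n = 5), a log2 difference of -0.42, which was 0.11 without the Timd4 libraries. Among antibody-secreting genes Jchain, which joins IgA and IgM units, stood at 1.25, 6.22, 3.13, 4.16 and 1.61 TPM in chow replicates 1 to 5 and at 0.772, 1.32 and 2.42 TPM (lowest, median, highest) in treated libraries. Chow replicates 2, 3 and 4 lay above every library of the other group. Its log2 difference was -0.72 ± 0.30 (SE), and -0.69 ± 0.31 without the Timd4 libraries, but the 8 tested genes of the plasma cell list had a median of -0.34, and of 0.05 without those libraries. Genes of MHC class II followed the B cell genes, with a median of -0.27 and 10 of 10 below 0, and 0.19 and 10 of 10 above 0 without those libraries.

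**Figure D4:**
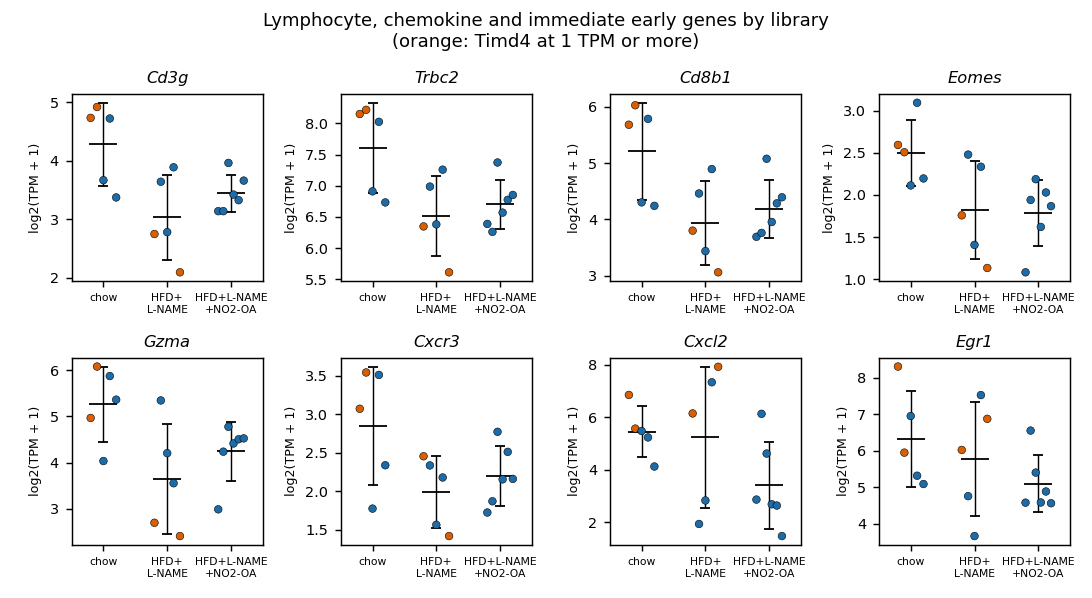
Log2(TPM + 1) of 8 genes (vertical axes) in each library of the 3 groups (points; orange for libraries with Timd4 at 1 TPM or more), with the mean and SD of each group (bars). Chow replicates 1, 2 and 4 lie above the treated libraries for Cd3g, Trbc2 and Cd8b1, chow replicates 3 and 5 lie among them, and Cxcl2 is low in 4 treated libraries.

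Chemokine genes controlled by NF-kB lay lower in treated libraries. Cxcl2 (ENSMUSG00000058427), a chemokine that attracts neutrophils, stood at 114, 46.2, 43.3, 36.4 and 16.3 TPM in chow replicates 1 to 5 and at 1.76, 5.82 and 68.8 TPM (lowest, median, highest) in treated libraries. Replicates 1, 4, 5 and 6 lay below every chow library, whereas replicate 2, at 68.8 TPM, and replicate 3, at 23.4 TPM, lay within the chow range. The fitted log2 difference came to -2.05 ± 0.87 (SE; limma unadjusted p = 0.0272, adjusted p = 0.977), -1.54 ± 0.90 without the Timd4 libraries and -2.09 within the lower run. Ccl4, a chemokine of monocytes and lymphocytes, averaged 13.8 ± 11.2 TPM (SD, n = 6) against 24.7 ± 10.3 TPM (SD, n = 5), a log2 difference of -1.04, which was -1.35 without the Timd4 libraries. Of 15 NF-kB target genes 14 lay below 0, with a median of -0.68, which was -0.46 with median-of-ratios scaling and -0.44 without the Timd4 libraries. The list median was 0.02 for HFD+L-NAME against chow and -0.48 for treated against HFD+L-NAME libraries. Both comparisons include libraries that held Timd4 and were not fitted without them. The inflammasome sensor Nlrp3, itself induced by NF-kB, averaged 12.4 ± 9.56 against 19.5 ± 6.49 TPM, but its list of 10 had a median of -0.26, and of 0.09 without those libraries.

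Immediate early factors, which cells induce within minutes of a stimulus and also during handling, lay lower too. Of 16 genes 15 lay below 0, with a median of -0.61, which was -0.27 without the Timd4 libraries. Egr1, a zinc finger factor, stood at 317, 61.0, 123, 39.0 and 33.1 TPM in chow replicates 1 to 5 and at 22.7, 25.8 and 93.2 TPM (lowest, median, highest) in treated libraries. Chow replicate 1 was far above the rest, and treated replicates 2 and 3 lay within the chow range. The log2 difference was -1.23 ± 0.62 (SE), and -0.69 ± 0.65 without the Timd4 libraries. Treated replicate 2 was the high library of its group for both Egr1 and Cxcl2.

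Genes of the NRF2, PPAR and STING pathways, on which NO2-OA is known to act, had list medians between -0.17 and -0.07. The 14 tested NRF2 targets had a median of -0.07, with 3 above and 11 below 0; with median-of-ratios scaling 11 lay above and 3 below 0. Hmox1, the haem oxygenase induced by electrophiles and by haem, stood at 15.5, 10.0, 24.5, 90.2 and 38.1 TPM in chow replicates 1 to 5 and at 25.7, 47.3 and 87.5 TPM (lowest, median, highest) in treated libraries. All 6 libraries lay above the chow median, within the range of chow replicates 3 to 5 and above replicates 1 and 2. Its log2 difference was 0.81 ± 0.45 (SE), with a 95% confidence interval from -0.12 to 1.74, and 0.11 ± 0.48 without the Timd4 libraries. Prdx1, a peroxiredoxin, averaged 19.7 ± 2.90 against 25.7 ± 10.3 TPM, a log2 difference of -0.30, which was 0.00 without the Timd4 libraries.

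PPAR targets and fatty acid handling genes had a median of -0.17, which was 0.14 without the Timd4 libraries and 0.06 with median-of-ratios scaling. The 9 genes of cGAS-STING sensing had a median of -0.12, which was 0.11 and 0.07 in the same settings. Genes of nitric oxide and cyclic GMP signalling, the pathway that L-NAME blocks, had a median of 0.02, with 6 of 9 above 0. Its direction depended on the setting, with a median of -0.10 and 4 of 9 above 0 without the Timd4 libraries, and of 0.24 and 8 of 9 above 0 with median-of-ratios scaling. Of the metallothioneins, which bind zinc and copper, Mt1 (ENSMUSG00000031765) stood at 9.91, 6.77, 2.59, 11.9 and 4.62 TPM in chow replicates 1 to 5 and at 8.96, 12.5 and 38.2 TPM (lowest, median, highest) in treated libraries. All 6 libraries lay above the chow median and chow replicates 1 and 4 lay within their range. Its log2 difference was 1.10 ± 0.49 (SE), 1.31 ± 0.51 without the Timd4 libraries, and 1.39 for HFD+L-NAME against chow. The 5 tested metallothioneins together had a median of 0.00, with 3 above and 2 below 0. Without the Timd4 libraries their median was 0.21, with 4 above and 1 below 0. With quality weights it was -0.11, with 2 above and 3 below 0.

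Eicosanoid genes make signalling lipids from fatty acids. Alox15, a lipoxygenase, differed by -2.80 ± 1.23 on the log2 scale (SE), and this value rested on the Timd4 libraries. It stood at 91.4 and 86.0 TPM in chow replicates 1 and 2, at 0.142, 0.734 and 1.24 TPM in chow replicates 3 to 5, and at 0.532 TPM or less in treated libraries. Without the Timd4 libraries the difference was -0.49 ± 0.28. Timp2, an inhibitor of matrix proteases, was likewise highest in chow replicates 1 and 2, at 17.1 and 14.8 TPM, and its difference of -1.06 came to -0.36 without them.

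Genes that separated the groups without overlap were few and mostly pseudogenes. In 43 genes (0.263% of those tested) every treated library lay below every chow library, and in 2 genes (0.0122%) every one lay above. The 43 included 37 genes annotated as pseudogenes and 4 annotated as protein-coding, Pdgfb, Aqp3, Jup and Rps18-ps5, named here because their groups did not overlap. Names of 12 of the 43, Rps18-ps5 among them, mark them as copies of ribosomal protein genes. Among the 12, Mrps36-ps1 and Mrps36-ps2 are by name copies of a mitochondrial and not a cytosolic one. For a gene that does not differ, the chance of no overlap in either direction is 0.00433 with all libraries. The shares of 0.263% and 0.0122% together do not exceed it. Without the Timd4 libraries 74 genes (0.452%) were lower and 17 (0.104%) higher without overlap. Smaller groups separate more easily by chance, so these counts cannot be compared with those from all libraries and show no firmer separation. A gene in this class has no call: none passed the test over all genes.

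Pdgfb (ENSMUSG00000000489), the B chain of platelet-derived growth factor, stood at 3.92, 2.76, 2.04, 2.57 and 2.72 TPM in chow replicates 1 to 5 and at 0.850, 1.11 and 1.69 TPM (lowest, median, highest) in treated libraries. The groups did not overlap. On the log2 scale the difference was -0.81 ± 0.25 (SE; limma unadjusted p = 0.00365), and -0.68 without the Timd4 libraries. Aqp3 (ENSMUSG00000028435), a channel for water and glycerol, stood at 2.76, 3.09, 2.01, 4.21 and 1.93 TPM in chow replicates 1 to 5 and at 0.884, 1.49 and 1.71 TPM in treated libraries. The gap between the groups was small, and the log2 difference was -0.67 ± 0.26, and -0.61 ± 0.31 without the Timd4 libraries. Jup, which encodes the junction protein plakoglobin, differed by -0.61, and by -0.36 without the Timd4 libraries. Iigp1, an interferon-induced GTPase, was 1 of the 2 genes on the other side, with 1.95 ± 0.790 TPM (SD, n = 6) against 0.936 ± 0.436 TPM (SD, n = 5) and a log2 difference of 0.60 ± 0.28. Its groups barely separated, with the lowest treated library at 1.51 TPM and the highest chow library at 1.49 TPM. Treated replicate 6 was its highest library at 3.56 TPM.

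The ribosomal pseudogenes among the 43 were picked because their groups did not overlap. The size of their differences can therefore not be set against that of the ribosomal protein genes. All 30 cytosolic ribosomal protein genes lay below 0, with a median of -0.54, which was -0.30 with median-of-ratios scaling, -0.18 without the Timd4 libraries and -0.03 within the lower run, where 12 of the 30 lay above 0. Rps20, a protein of the small subunit, averaged 62.4 ± 11.6 TPM (SD, n = 6) against 104 ± 34.8 TPM (SD, n = 5), with overlapping groups and a log2 difference of -0.68, which was -0.44 without the Timd4 libraries. Rps12-ps13, a copy of a small subunit gene, stood at 150.0, 76.4, 73.4, 63.4 and 72.3 TPM in chow replicates 1 to 5 and at 22.0, 43.7 and 48.5 TPM (lowest, median, highest) in treated libraries, and was chosen after its values were seen. Every chow library lay above every treated library. The 1818 tested processed pseudogenes had a median of -0.38, against -0.20 for 10900 protein-coding genes, and -0.26 against 0.02 without the Timd4 libraries. Reads that fit both a pseudogene and its parent may be split between them or lost in counting, so these values are uncertain as levels of the pseudogenes themselves.

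**Figure D5:**
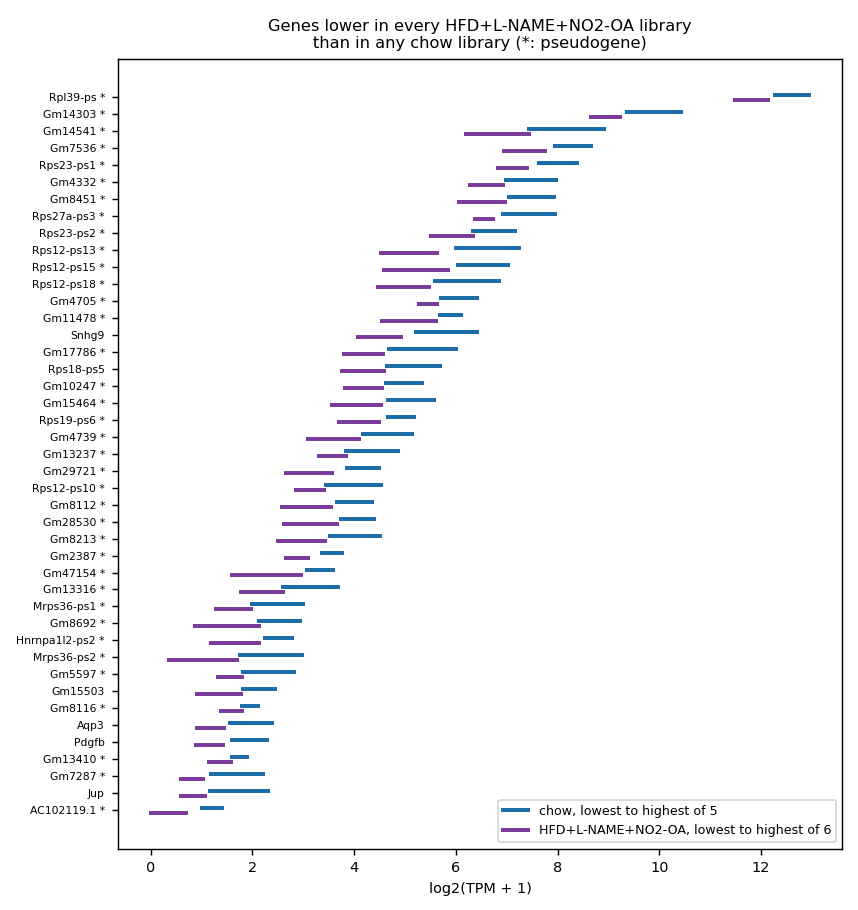
Range of log2(TPM + 1) (horizontal axis, lowest to highest library) in chow (blue, 5 libraries) and HFD+L-NAME+NO2-OA (purple, 6 libraries) for each of the 43 genes in which the groups did not overlap and HFD+L-NAME+NO2-OA lay lower; an asterisk marks a gene annotated as a pseudogene, of which there are 37. The gap between the bars is narrow for most genes beside the width of the bars.

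Among the other named genes that lay lower, Endog, a mitochondrial endonuclease, averaged 2.04 ± 0.744 TPM (SD, n = 6) against 4.85 ± 2.08 TPM (SD, n = 5), a log2 difference of -0.91 ± 0.32. Nmb, which encodes the peptide neuromedin B, averaged 4.17 ± 2.00 against 8.03 ± 1.71 TPM, a difference of -0.86 ± 0.31. The remaining protein-coding or named genes of this group were Tdrp (-1.07), Rab11fip4 (-0.82), AW112010 (-0.89) and Selenoh (-0.87). All 6 libraries lay below the chow median for each of these 6 genes, and the groups overlapped in each. Without the Timd4 libraries the differences were -0.60 for Endog, -0.68 for Nmb, -0.90 for Tdrp, -0.48 for Rab11fip4, -0.53 for AW112010 and -0.59 for Selenoh. Of the 24 genes named for the smallest unadjusted p, 12 lay higher and 12 lower, and 6 of them have no symbol and are counted only.

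Outside the fit with quality weights, 1 gene passed the test, and only where libraries were left out. This gene, Gm25783, annotated as a small nuclear RNA and chosen after its values were seen, had 0 recovered reads in all 5 chow libraries and 1, 0, 1, 2, 2 and 2 reads in treated replicates 1 to 6. Its adjusted p by limma was 0.00583 within the lower run of library numbers and 0.00462 without treated replicate 2, but 0.977 with all libraries. Both settings with a low value leave out treated replicate 2, the treated library with 0 reads. The gene reached 1 TPM in every other treated library and in no chow library. It thus passed the expression filter through the group where it was high, and these p-values are no support for a difference. A gene with at most 2 reads in a library is not separated from 0 by counting, so no fold is given.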

How the data were processed

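Random-primed total RNA libraries of thawed mouse PBMCs were made after rRNA depletion and sequenced in pairs, per the labels' protocols. The authors used HISAT2, featureCounts, bcl2fastq and Trim Galore with the builds mm39 and hg38, per the submitters' processing notes; versions, annotation release and strand setting are not given in the sources used here. The authors deposited TPM for 51179 genes in 16 libraries. GENCODE M21 matched 48486 identifiers and gave names and gene types alone; promoter sequences are RefSeq's (GRCm38.p6). Whole reads were recovered from the TPM steps for 100% of tested genes, within a tolerance of 0.001, or 0.02 for genes of high counts. Library totals spanned a 5.16-fold range.

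Genes with at least 1 TPM in at least 5 libraries (16365) were fitted with limma 3.58.1 in R 4.3.3 on log2(TPM + 1), a pseudocount that understates changes of low genes, with 1 coefficient per group over all 16 libraries, a variance trend, two-sided tests and Benjamini-Hochberg adjustment. Log2 differences carry the standard error of the fit. Named genes are the 24 of smallest unadjusted p, leaving out gene models, pseudogenes, receptor segments and genes under a mean of 2 TPM, plus the 2 members of smallest p of each list and the member of highest level of each cell type list; a few others are said to be chosen after their values were seen. A few named genes are left unreported. The 51 gene lists hold 597 genes, of which 492 were tested. The comparison, lists and tests were chosen with earlier results of these data known. Of 26 alternatives, a pair was chosen on seeing the data: a test of protein-coding genes only, and leaving out the 3 libraries with under 25% of TPM in protein-coding genes. The procedure was tested on simulated data. Tables and plots were made with Python 3.11.15, numpy 2.4.6, pandas 2.3.3, scipy 1.17.1 and matplotlib 3.10.9.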

Additional observations from a re-analysis of the deposited data

Results flagged for a closer look

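In 12 of 248 groups of libraries 1 library stood apart from the rest of its group by Dixon's criterion, where chance gives about 1 in 20. HFD+L-NAME+NO2-OA replicate 2 did so for 6 genes. It was low for Hspa1b (246 TPM) and Hspa1a (206 TPM), for Tubb1, a platelet tubulin (38.5 TPM), and for Ear2, a ribonuclease of eosinophils (6.30 TPM), and high for Hpgds, a prostaglandin D synthase (2.52 TPM), and the clock gene Per2 (9.08 TPM). This library had 5.62 M recovered reads and 15.9% of TPM in protein-coding genes, the lowest of the 11 in both.

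HFD+L-NAME+NO2-OA replicate 3 was high for Ahr (20.3 TPM) and for Derl3, a gene of protein quality control in plasma cells (1.05 TPM), and replicate 1 was low for Gzma (6.96 TPM). In chow, replicate 5 was low for Derl3 (0.415 TPM), replicate 3 was low for the share of TPM in protein-coding genes (22.1%), and replicate 4 was high for the mitochondrial share (0.618%).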

How the results depend on the processing

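The count of called genes was 0 in the reported fit and in all but 3 settings: it was 1 higher gene (Gm25783) within the lower run of library name numbers and 1 without HFD+L-NAME+NO2-OA replicate 2, and 115 (9 higher and 106 lower) with array quality weights. Leaving out single libraries gave 0 to 1 genes. The weights ran from 0.22 for chow replicate 3 to 8.60 for HFD+L-NAME replicate 1, and of the 115 genes 45 were protein-coding, 21 processed pseudogenes and 19 T cell receptor variable segments; the cause was not tested. Of the 24 genes named by p, 6 passed there alone: Endog, Tdrp, Aqp3, Rab11fip4, AW112010 and Selenoh. Hspa1b and Hspa1a came to near 0 without the libraries that held Timd4 (-0.066 ± 0.743 and -0.041 ± 0.734, SE). This setting leaves out the chow libraries where both were lowest. Within the lower run of library numbers they differed by 0.54 and 0.56. Of 95 genes named from lists alone 42 changed sign in some setting. With the replicate number as a block 0 genes were called. Of 5 same-numbered pairs, 1 had deviations from the group means correlated above 0.1 (range -0.39 to 0.51), and 2 of 10 libraries correlated best with their own number. The labels state no pairing, and a check on 5 pairs cannot exclude one. Depth limits low genes such as Gm25783, with at most 2 reads in a library of this comparison.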

Other observations

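T cell receptor variable segments, the gene pieces that give each T cell clone its receptor, were tested as 108 genes with a median log2 difference of -0.46, with 94 below 0; the median was -0.20 without the libraries that held Timd4 and -0.27 with median-of-ratios scaling. Immunoglobulin variable segments were tested as 196 genes with a median of -0.29, and of 0.19 without those libraries.

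Platelet genes varied between libraries more than between groups. Ppbp, a platelet chemokine, stood at 202, 4350 and 12028 TPM (lowest, median, highest) in HFD+L-NAME+NO2-OA and from 895 to 11629 TPM in chow. The 12 tested platelet genes had a median of -0.08, which moved between -0.47 and 0.69 when single libraries were left out.

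Genes of energy metabolism and secretion stood close to the median of all genes. Respiratory chain subunits had a median of -0.28, glycolysis -0.21, cholesterol synthesis and transport -0.26 and the unfolded protein response -0.34, against -0.20 for all tested genes. Without the libraries that held Timd4 these medians were -0.06, -0.11, -0.02 and -0.08, against 0.01. Clock and glucocorticoid response genes had a median of -0.34, and of 0.00 without those libraries.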
